A study of Homo sapiens with 3 samples.

Results

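The BCL2 family sets whether mitochondria release the proteins that start apoptosis, and 10 of its genes were followed in HCT116 human colorectal carcinoma cells depleted of the arginine methyltransferase PRMT1. The genes were BCL2, BCL2L1, MCL1, BCL2L11, BCL2L12, BID, BAD, BAK1, BIK and BMF, and they were read through every non-control probe that carries 1 of these names. This gave 17 probes of 10 genes among 58201 non-control probes and 41749 gene names. BAX, BBC3 and PMAIP1, family genes known as targets of p53, were outside this choice. Whether the members respond to p53 was not tested.

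RNA was measured on 1-colour Agilent arrays, namely 1 array of control cells (labelled NC), 1 of PRMT1-KD1 cells and 1 of PRMT1-KD2 cells, both PRMT1 knockdowns. Per the labels, HCT116 cells in McCoy's 5A medium with serum were transfected by Lipofectamine 3000, and siRNAs against PRMT1 were used, but which siRNA each knockdown received is not given in the labels. The 3 arrays shared 1 slide and 1 scan. With 1 array per group there is no replicate check, no p-value is given, and both knockdowns are set against the same NC array, so their changes share its error.

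Survival members of the family (BCL2, BCL2L1, MCL1) bind and hold back the effectors BAK1 and BAX, which otherwise make the mitochondrial outer membrane permeable to cytochrome c. BH3-only members (BCL2L11, BID, BAD, BIK, BMF) are sensors of stress that neutralise the survival members or switch on the effectors. Many colorectal tumours depend on BCL2L1 or MCL1 rather than on BCL2 for survival.

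Levels are given on the log2 scale relative to each array's 75th percentile, so that a level of 0 is the 75th percentile, and changes are differences of these levels. The threshold was a fold of 1.5, or 0.585 on the log2 scale. The levels of different probes are not compared, because probes differ in how brightly they report. In bulk RNA, fewer cells that express a gene and less RNA per cell cannot be told apart. As a yardstick of error, the changes between both knockdowns of the same target had a robust SD of 0.377 over the 17054 genes well above background on all arrays. For each gene the same SD was also taken over the 1000 genes of most similar brightness. Neither SD holds the error of the NC array, which the changes against NC share. The extraction software's own error came to 0.20 for the change of a bright probe and to 0.31 for the dim BCL2 probe in PRMT1-KD1.

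PRMT1 itself, the targeted gene, had a level of 6.01 in NC, 2.75 in PRMT1-KD1 and 1.45 in PRMT1-KD2, or 10.4% and 4.24% of NC. The arrays had 40.8% to 42.5% of probes well above background and no saturated spot, and the median SD between repeated spots of a probe was 0.039 to 0.049. Of the 6 epithelial markers, CEACAM5 was not well above background and 5 were on all arrays. In PRMT1-KD1 and PRMT1-KD2, the cadherin CDH1 was higher than NC past 1.5-fold (0.97 and 0.76), the keratin KRT8 was at -0.87, past 1.5-fold, and -0.40, and KRT18 (-0.52 and -0.57), KRT19 (-0.29 and -0.20) and EPCAM (0.30 and -0.01) differed by less than 1.5-fold.

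Of the markers of other cells, 1 of 4 fibroblast and 2 of 3 endothelial genes were measured on some array, as were the leukocyte genes CD14 and PTPRC, and CD3E, COL1A2, DCN, PDGFRB and PECAM1 were not well above background on any. In PRMT1-KD1 and PRMT1-KD2, VWF differed from NC by -0.10 and 0.20, COL1A1 by 0.28 and 0.62, and CD14 by 0.05 and 0.57. CDH5 was at 279.7% and 146.0% of NC. Its NC level of -2.26 was near -2.715, the lowest level well above background on that array. PTPRC was well above background on PRMT1-KD2 alone, where it was at least 0.39 above NC. Of these, CDH5 in PRMT1-KD1 and COL1A1 in PRMT1-KD2 passed 1.5-fold. The part of these markers in the members' values was not tested.

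The sequences that reported the members with the largest changes follow, because they decide which transcripts were read. Each probe has 60 bases that lie in 60 unbroken bases of build hg19, so none crosses a splice junction there. The last 30 bases of each are printed 5′ to 3′, and capitals mark AATAAA, the polyadenylation signal, searched on the probe strand only.

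MCL1: tatcatgtatctctaaggacctaaaagcac
BCL2L1: gcctttgttttgatgtttgtggcctcagaa
BIK: tggctctgcaattgtcaccggttaactgtg
BAD: ggcttggtcccatcggaagttttgggtttt
BCL2L11 upstream probe: tgactctgactctcggactgagaaacgcaa
BCL2L11 middle probe: tatggtcattggtgattaAATAAAatgtat
BCL2L11 downstream probe: gggtaattgccactttacttgtgcaatact
BCL2L12 downstream probe: aaaAATAAAttgtttaaaacttttcttatt
BCL2L12 upstream probe: gaagatgtcttccctgctccctggggcgag

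The MCL1 probe (chr1:150547622-150547681, minus strand) is listed for 3 RefSeq transcripts, NM_021960, NM_182763 and NM_001197320, so its splice forms were read together. The BCL2L1 probe (chr20:30253324-30253383, minus strand) is listed for NM_138578 and NM_001191, the transcripts of the long, protective form and of the short, death-promoting form, which the array therefore does not separate. The BIK probe lies at chr22:43525495-43525554 (plus strand) and the BAD probe at chr11:64037483-64037542 (minus strand). Over the whole array 7.85% of probes held AATAAA, and 2 of the 17 member probes did. Exon and UTR positions were not assigned, since no annotation of hg19 was used here.

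Of the 17 probes, 13 were well above background on all arrays, 3 on none and 1 on some, and 9 of the 10 genes had a probe well above background on every array. Each member probe had 1 spot and none was left out for an outlier mark. A gene with several such probes is described by its brightest one, and the other probes are given beside it.

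**Figure D1:**
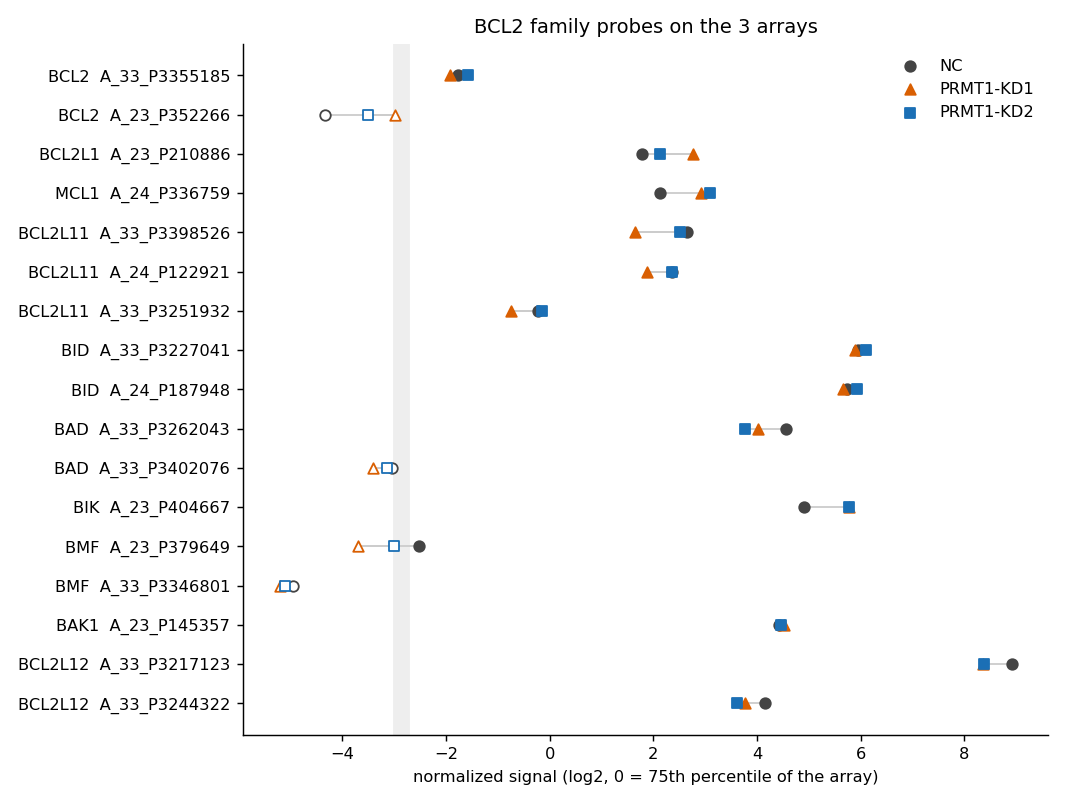
Normalized signal (log2, with 0 at the 75th percentile of the array) of the 17 member probes on NC (circles), PRMT1-KD1 (triangles) and PRMT1-KD2 (squares). Open symbols are not well above background and the grey band spans the lowest signals that were, over the 3 arrays. MCL1 and BIK sit right of NC in both knockdowns, and BAD and both BCL2L12 probes sit left of it.

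Among the survival members, MCL1 was higher than in NC past 1.5-fold in both knockdowns and BCL2L1 in PRMT1-KD1. MCL1, a short-lived protein that restrains BAK1, had a level of 2.13 in NC, 2.92 in PRMT1-KD1 and 3.10 in PRMT1-KD2. It was raised by 0.79 in PRMT1-KD1 (172.7% of NC) and by 0.97 in PRMT1-KD2 (195.9% of NC). With the trend by GC content and brightness subtracted, its PRMT1-KD1 change was 0.53, under 1.5-fold. Both knockdown arrays lay above NC, and the difference of -0.18 between them was within the SD of 0.35 among 1000 genes of like brightness.

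BCL2L1, which encodes BCL-XL, had a level of 1.77 in NC, 2.76 in PRMT1-KD1 and 2.12 in PRMT1-KD2. The rise in PRMT1-KD1 was 0.99, or 198.9% of NC, whereas PRMT1-KD2 differed from NC by 0.35 (127.5% of NC), which is less than 1.5-fold. PRMT1-KD1 exceeded PRMT1-KD2 by 0.64, against an SD of 0.36 among genes of like brightness, and this excess fell under 1.5-fold with quantile normalization, with scaling by detected probes and with a trend by GC content and brightness subtracted. Its change in PRMT1-KD1 ranked 877 from the highest of 19006 genes with a value.

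BCL2, the founding survival gene, lay close to background on all arrays. Its brighter probe, listed for NM_000657, had a level of -1.77 in NC, -1.92 in PRMT1-KD1 and -1.57 in PRMT1-KD2. The other probe, listed for NM_000633, was not well above background on any array. Without exon positions, whether the brighter probe also reads NM_000633 was not settled, so these levels do not separate the transcripts. The changes of the brighter probe, -0.15 and 0.20, were smaller than the 0.46 SD among genes of like brightness and opposite in sign. The first was above 0 in 4 of 11 alternative settings. With the mean over both probes, the undetected one included, BCL2 was at 0.59 in PRMT1-KD1, past 1.5-fold, and at 0.51 in PRMT1-KD2.

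BIK rose in both knockdowns, while BAD and BCL2L11 were each lower past 1.5-fold in 1 of them. BIK, a BH3-only protein of the endoplasmic reticulum, had a level of 4.91 in NC, 5.78 in PRMT1-KD1 and 5.76 in PRMT1-KD2. These were rises of 0.87 (183.2% of NC) and 0.86 (181.2% of NC). The knockdowns differed from each other by 0.02, far less than the SD of 0.28 among genes of like brightness.

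BAD, whose binding to survival members is switched off when kinases phosphorylate it, had a level of 4.57 in NC, 4.02 in PRMT1-KD1 and 3.77 in PRMT1-KD2. It fell by 0.80 in PRMT1-KD2, to 57.4% of NC. In PRMT1-KD1 the change was -0.55, or 68.5% of NC, just short of 1.5-fold. A further BAD probe, for ENST00000544271, was not well above background on any array.

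BCL2L11, which encodes BIM, the BH3-only activator of BAK1 and BAX, was read by 3 probes along chromosome 2. The upstream probe (chr2:111878705-111878764), listed for NM_207002 and NM_001204113 among others, had a level of 2.65 in NC, 1.64 in PRMT1-KD1 and 2.52 in PRMT1-KD2. It fell by 1.01 in PRMT1-KD1, to 49.6% of NC, rank 624 from the lowest of 19006 genes with a value, and its difference in PRMT1-KD2 was -0.13. PRMT1-KD1 lay apart from the other arrays, which were within 0.13 of each other.

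The other BCL2L11 probes gave a smaller difference in the same array. The middle probe (chr2:111886352-111886411, NM_207002) differed from NC by -0.53 in PRMT1-KD1 and 0.06 in PRMT1-KD2, with levels of -0.22, -0.75 and -0.15 in NC, PRMT1-KD1 and PRMT1-KD2. The downstream probe (chr2:111925892-111925951), listed for NM_138621 and others, differed by -0.48 and 0.01, with levels of 2.35, 1.87 and 2.36. On all 3 probes PRMT1-KD1 was the lowest array, and on 1 of them, the upstream one, the change passed 1.5-fold.

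BID, which carries the signal from death receptors to mitochondria, kept close to NC. Its brighter probe had a level of 5.94 in NC, 5.89 in PRMT1-KD1 and 6.10 in PRMT1-KD2, and its differences from NC were -0.04 and 0.16. Its further probe differed by -0.07 and 0.20. BMF, a BH3-only protein tied to the cytoskeleton, was well above background on NC alone, at -2.52. As bounds, it was at most 71.8% of NC in PRMT1-KD1 and at most 79.3% in PRMT1-KD2 (-0.48 and -0.33), both short of 1.5-fold, and a larger difference was not detectable at this signal.

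BAK1, the effector in this set, had a level of 4.43 in NC, 4.52 in PRMT1-KD1 and 4.45 in PRMT1-KD2. The arrays lay within 0.10 of each other, against an SD of 0.29 among genes of like brightness.

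BCL2L12, a family relative reported to restrain caspases and p53, was lower in both knockdowns by amounts just short of the threshold. Its downstream probe (chr19:50177097-50177156) had a level of 8.91 in NC, 8.37 in PRMT1-KD1 and 8.37 in PRMT1-KD2, or 68.4% and 68.5% of NC. The upstream probe (chr19:50170290-50170349) had levels of 4.14, 3.77 and 3.62, with differences of -0.38 and -0.53. On both probes NC was the highest array. The differences of the downstream probe, -0.55 in each knockdown, exceeded the SD of 0.24 among genes of like brightness, which leaves out the NC array's error. They ranked 2807 from the lowest of 19006 genes with a value in PRMT1-KD1 and 2391 of 19296 in PRMT1-KD2.

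Taking the 10 genes as counts, 1 gene was lower by 1.5-fold in PRMT1-KD1 (BCL2L11) where 12.8% of all genes tested were, and 3 were higher (BCL2L1, MCL1, BIK) where 13.2% were. In PRMT1-KD2, 1 was lower (BAD) beside 10.7% of all genes, and 2 were higher (MCL1, BIK) beside 9.56%. Between PRMT1-KD1 and PRMT1-KD2, 1 of 9 members was lower (BCL2L11) beside 8.85% and 1 was higher (BCL2L1) beside 9.84%. The members' median change was -0.10 in PRMT1-KD1 and 0.09 in PRMT1-KD2, beside medians over all genes of -0.04 and -0.05. In PRMT1-KD1 4 members lay above 0 and 6 below, and in PRMT1-KD2 6 lay above and 4 below. BMF, well above background on NC alone, enters these counts and medians as a bound that could only lie below 0. Without BMF, the members' median in PRMT1-KD1 was -0.04.

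**Figure D2:**
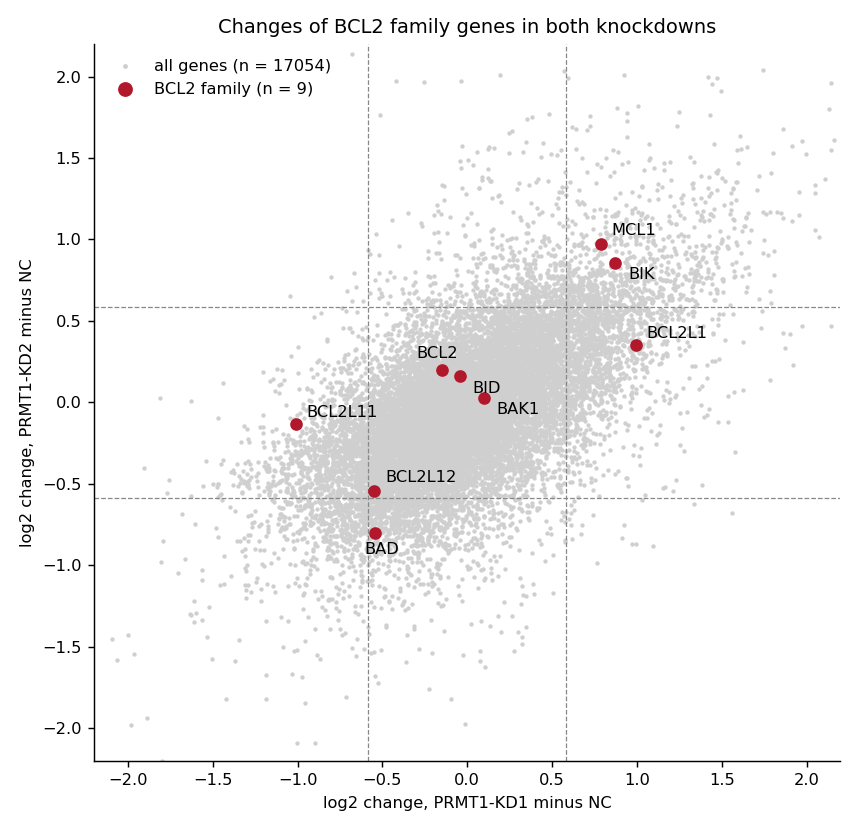
Log2 change in PRMT1-KD1 (horizontal) and in PRMT1-KD2 (vertical), both against the same NC array, for 17054 genes (grey) and the 9 members well above background on all arrays (red), with dashed lines at 1.5-fold. The axes end at 2.2 on either side. MCL1 and BIK lie past the lines on both axes, and BCL2L1 and BCL2L11 past the lines on the horizontal axis alone.

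Genes that act with the members were taken from lists by function. Of the 11 measured family genes outside the choice, 1 was lower and 1 higher in PRMT1-KD1 (BCL2L15 and BBC3), and 0 were lower and 2 higher in PRMT1-KD2 (BAX and BBC3). BCL2L15 was well above background on NC alone, so its values of -0.72 and -0.57 could only lie below 0. They are bounds set by the lowest signal well above background on each knockdown array. BBC3, which encodes PUMA and binds all survival members, changed by 0.97 and 1.29. The median over these 11 genes was 0.39 in PRMT1-KD1 and 0.21 in PRMT1-KD2, beside the all-gene medians given above.

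Downstream of the members, CYCS, the cytochrome c that the effectors let out, was higher in both knockdowns and changed by 1.21 and 0.80. In PRMT1-KD1, DFFB, a nuclease that cuts DNA in apoptosis, was also higher and DIABLO, which is released with cytochrome c, was lower. Of the 6 measured inhibitors of apoptosis, XIAP, BIRC2 and CFLAR were higher in PRMT1-KD1, and in PRMT1-KD2 BIRC2 was higher and BIRC5 lower. BIRC2, a ubiquitin ligase, changed by 0.62 and 0.59 and kept that call in 8 of 11 alternatives in each knockdown, and the list's medians were 0.38 and 0.21. Among 10 measured death receptor genes (medians 0.28 and 0.19), FAS was higher in PRMT1-KD1 and 0 passed in PRMT1-KD2.

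Of 17 partner genes (medians 0.13 and 0.14), YWHAG and YWHAH were higher in both knockdowns and 0 were lower. They encode 14-3-3 proteins, the family that holds phosphorylated BAD in the cytosol, and changed by 0.73 and 0.79 (YWHAG) and by 1.15 and 0.75 (YWHAH). Of 15 kinases and transcription factors that act on the members (medians 0.05 and -0.06), STAT3 was higher in both, by 1.33 and 1.34, PIM1 was higher in PRMT1-KD2, and AKT2, PIM2 and MAPK9 were lower in PRMT1-KD2. The STAT3 change in PRMT1-KD1 was 0.39, under 1.5-fold, with the trend by GC content and brightness subtracted.

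**Figure D3:**
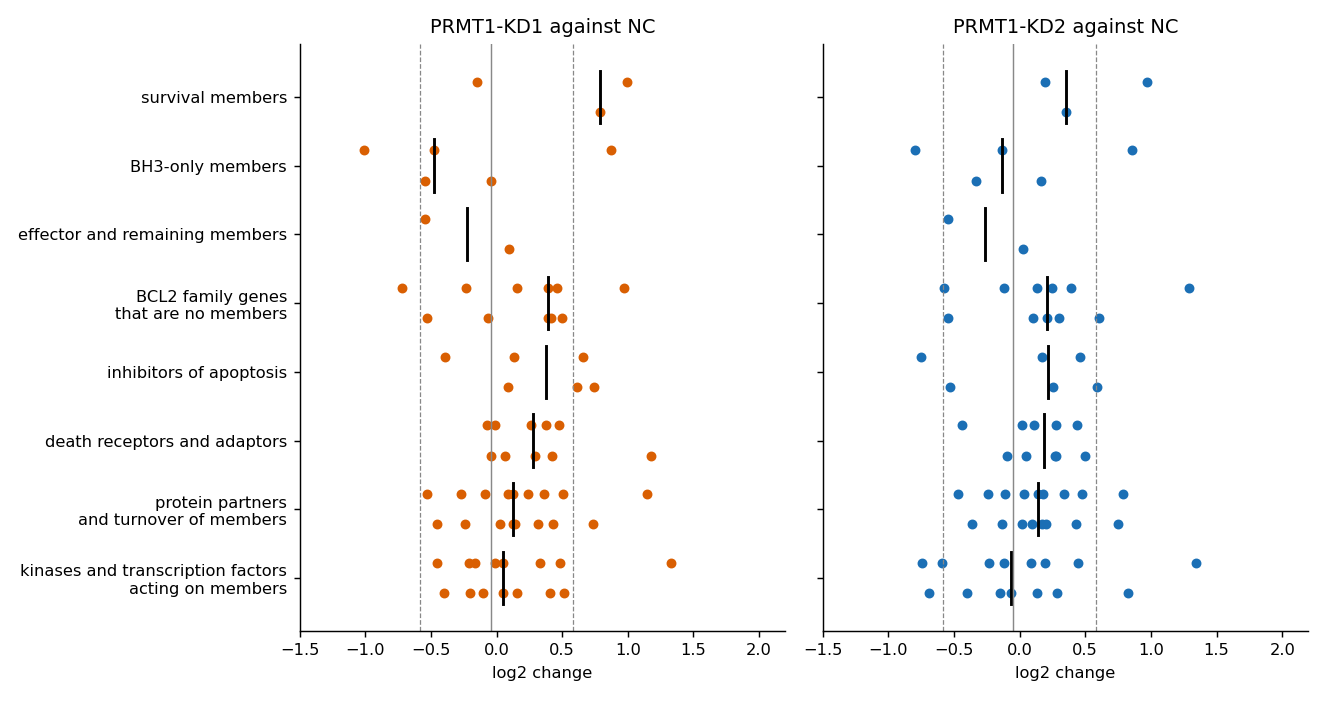
Log2 change of each gene in PRMT1-KD1 (left) and PRMT1-KD2 (right) for the members in groups by role and for the lists of genes that act with them. Black bars are list medians, the grey line is the median of all genes and dashed lines mark 1.5-fold. The 3 survival members have medians of 0.79 and 0.35, and the 5 BH3-only members medians of -0.48, which is the bound of BMF, and -0.13. BMF could only lie below 0, and it is part of both BH3-only medians.

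BCL2L12 lies next to PRMT1 on chromosome 19 in the RefSeq gene table of GRCh38.p14, where the order is PRRG2, PRR12, RRAS, SCAF1, IRF3, BCL2L12, PRMT1, MIR5088, ADM5 and CPT1C. The BCL2L12 probes were at -11.7 kb and -18.5 kb from the PRMT1 probe on hg19. IRF3, at -24.75 kb, beyond BCL2L12, differed from NC by -0.51 and -0.47 on 1 probe and by -0.46 and -0.39 on another. SCAF1 (-0.02 and 0.17), RRAS (-0.17 and 0.02), PRRG2 (-0.04 and -0.06) and NOSIP (0.21 and 0.19) differed from NC by less than the 0.377 yardstick.

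On the far side of PRMT1, the CPT1C probe at 27.25 kb gave 0.05 and -0.59, and the one at 28.1 kb gave -0.52 and -0.66. Farther away, AP2A1 differed by -0.24 and -0.51, and FUZ, at 121.5 kb, changed by -0.82 and -0.62. ADM5 and TSKS were below background on all arrays. Of the 10 measured genes of this list, PRMT1 and FUZ were lower by 1.5-fold in PRMT1-KD1, and PRMT1, CPT1C and FUZ in PRMT1-KD2. FUZ kept that call in 7 of 11 alternative settings in PRMT1-KD1 and in 6 of 11 in PRMT1-KD2, and the BCL2L12 probe passed 1.5-fold in 1 of 11 in each. A part of the PRMT1 knockdown in the values of its neighbours was not tested.

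**Figure D4:**
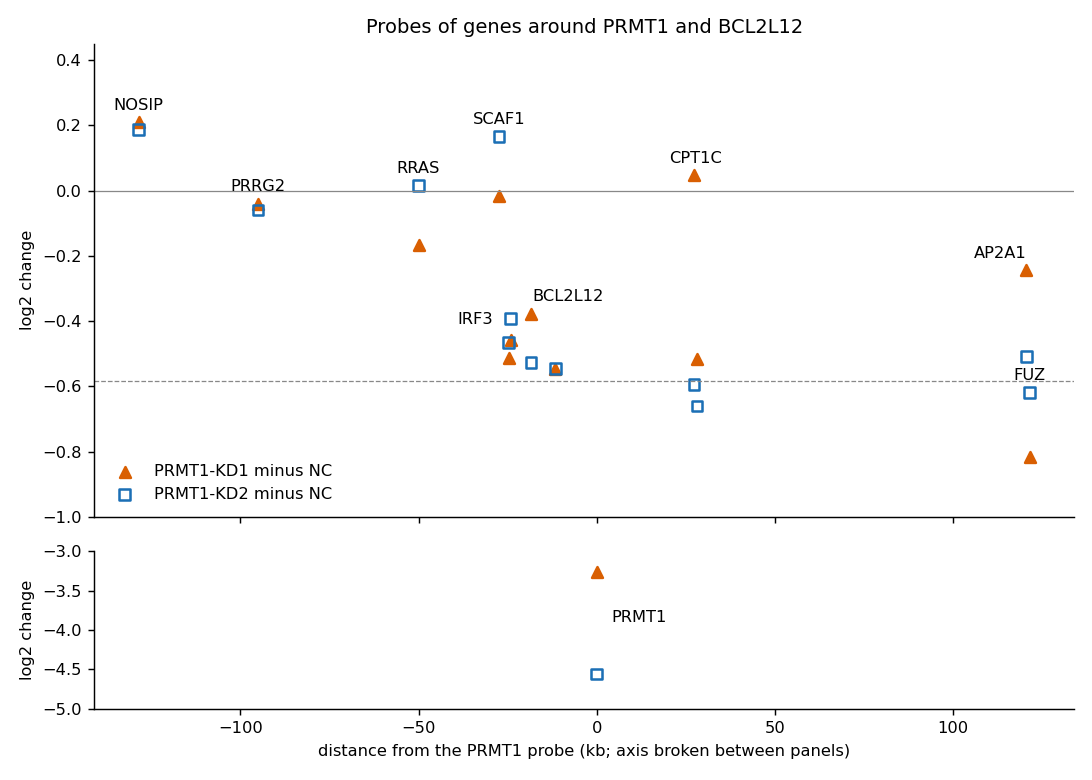
Log2 change of each probe well above background, by distance from the PRMT1 probe in kb, for PRMT1-KD1 (triangles) and PRMT1-KD2 (open squares), with the dashed line at 1.5-fold lower and a vertical axis split between panels. PRMT1 lies at -3.26 and -4.56, and the BCL2L12 and IRF3 probes between -0.38 and -0.55.

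Promoters of BCL2L12 and BAD, the members below NC by more than the 0.377 yardstick in both knockdowns, are printed for their GC boxes, the motif most of the member promoters held. They are RefSeq sequences of GRCh38.p14, the 250 bases before the first start listed for each, at chr19:49665683-49665932 (plus strand) for BCL2L12 and chr11:64284705-64284954 (minus strand) for BAD, with GC boxes (GGGCGG or CCGCCC) in capitals.

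BCL2L12 promoter: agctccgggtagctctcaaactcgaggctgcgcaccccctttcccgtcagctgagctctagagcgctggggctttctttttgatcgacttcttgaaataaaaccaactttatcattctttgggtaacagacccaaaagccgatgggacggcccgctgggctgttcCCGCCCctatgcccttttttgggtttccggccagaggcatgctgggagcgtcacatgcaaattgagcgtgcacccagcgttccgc
BAD promoter: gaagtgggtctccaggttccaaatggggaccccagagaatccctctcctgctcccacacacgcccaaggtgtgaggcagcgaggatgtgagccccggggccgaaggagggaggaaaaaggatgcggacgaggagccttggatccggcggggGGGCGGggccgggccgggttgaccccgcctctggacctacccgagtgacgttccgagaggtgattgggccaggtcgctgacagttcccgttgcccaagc

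Promoters were found for 8 of the 10 members and not for MCL1 and BIK, which passed 1.5-fold in both knockdowns. The promoters were 16 windows of 250 bases before to 50 after a start. Of these, 11 held GGGCGG on either strand, beside 45.0% of 35116 promoters of the same length, 1 held TATAAA (11.5%), 1 held GTAAACA (3.42%) and 0 held TGACGTCA (1.85%). The GTAAACA match, a forkhead-type motif, was in the BCL2L11 window. Windows of the same gene can overlap, as those of BAD and BID do, so the 16 windows are not independent. Of the BCL2L12 windows, the one not printed held 0 GC boxes. A match is a run of letters and not a bound site.

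The genes whose pair of changes lay closest to MCL1, by the Euclidean distance of the changes in both knockdowns over the 17053 other genes above background on all arrays, were OSBPL2, AXIN1 and lnc-NUMB-2, and 26 genes lay within 0.1. For BCL2L12 the closest were SFI1, ENST00000615248 and TTC9B, and 244 genes lay within 0.1, a larger number than for MCL1.

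**Figure D5:**
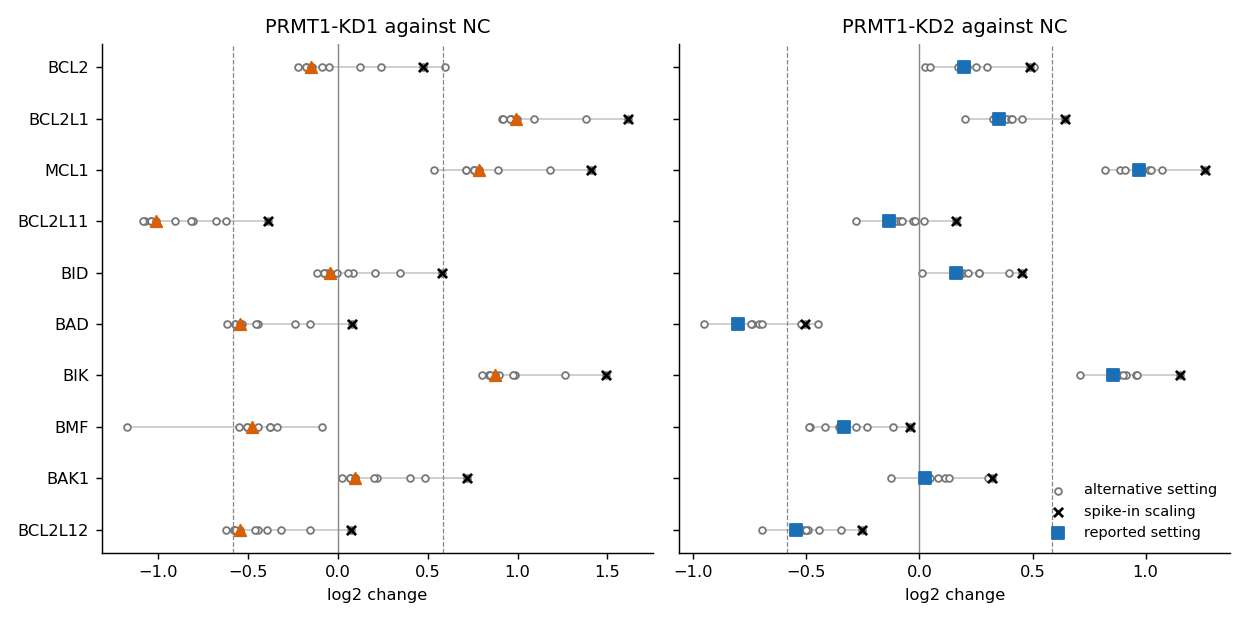
Log2 change of each member in PRMT1-KD1 (left) and PRMT1-KD2 (right) in the reported setting (filled) and in the alternative settings (open), with scaling to spike-in probes as crosses and dashed lines at 1.5-fold. MCL1 and BIK stay right of 0 in the settings plotted, and spike-in scaling, which moves the median of genes detected on all arrays to 0.58 and 0.23, takes BAD and BCL2L12 in PRMT1-KD1 to 0.08 and 0.07.

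MCL1, BIK and BCL2L1 lay above NC in both knockdowns in all 11 alternatives run for each, and MCL1 passed 1.5-fold in 10 of the 11 in PRMT1-KD1 and BCL2L1 in 1 of the 11 in PRMT1-KD2. MCL1 ranged from 0.53 to 1.41 in PRMT1-KD1 and from 0.82 to 1.26 in PRMT1-KD2, and BIK from 0.80 to 1.49 and from 0.71 to 1.15. BCL2L11 in PRMT1-KD1 ranged from -1.08 to -0.39 and was past 1.5-fold in 10 of the 11. BAD in PRMT1-KD2 ranged from -0.95 to -0.45 and was past 1.5-fold in 8 of the 11. BAD and BCL2L12 in PRMT1-KD1 lay above NC with scaling to the spike-in probes, as did the all-gene median. Relative to the median, in the same setting, of genes detected on all arrays, BAD was at -0.23 or lower and BCL2L12 at -0.27 or lower in all settings run.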

How the data were processed

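RNA from 3 samples of HCT116 cells (NC, PRMT1-KD1, PRMT1-KD2) was hybridised to 1-colour Agilent arrays, 1 array per group. The authors deposited scanner output in which Agilent Feature Extraction 10.7.1.1 gives a fluorescence intensity per spot, background-corrected and detrended on each array and not scaled between arrays, with hg19 probe positions. The deposited series matrix holds the mean intensity of each probe, unscaled, and served as an alternative.

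Control spots and spots marked as outliers were left out, which removed 130 probes. Spots were averaged as log2 intensity and each array's 75th percentile was subtracted, both computed here from the deposited intensity. A gene was its brightest probe and was tested when well above background on at least 1 array compared. Elsewhere its value was set to the lowest signal well above background there, or its own if higher, which gives a bound. The fold of 1.5 is that of the study's methods, whose p-value needs replicates. The counting was run on simulated arrays with changes in bright genes larger than those of the members. It therefore does not show how well changes of the members' size are called.

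All members, PRMT1, the genes around PRMT1, up to 4 genes of each list (past 1.5-fold in 1 direction in PRMT1-KD1 and PRMT1-KD2, detected on all arrays), and the 3 nearest genes to MCL1 and BCL2L12 were named by rule. Other genes counted by name in a list were named after their values were seen. The list of caspase and apoptosome genes is not reported here as counts or medians. The members and lists were chosen with earlier results of these data known. Alternatives were normexp (offset 50), quantile, median and detected-probe scaling, the series matrix values with and without scaling, the mean over probes, marked spots kept, no floor, a filter on background, a fold of 2 and a mean for a median. Scaling to 8 spike-in probes and subtracting a trend by GC content (5 classes) and brightness (10 classes) were added once the data had been seen. The number of arrays limits the precision. SMARCA4 knockdowns were not analysed here. Normexp was run in limma 3.58.1 under R 4.3.3, and everything else in Python 3.11.15 with pandas 2.3.3 and numpy 2.4.6.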

Additional observations from a re-analysis of the deposited data

Results flagged for a closer look

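In 2 members 1 knockdown was above NC and the other below. PRMT1-KD1 minus PRMT1-KD2 was -0.35 for BCL2 and -0.20 for BID on the log2 scale. With 1 array per group the difference was not tested, and both values were smaller than the spread between the knockdowns over all genes, an SD of 0.377. Under 4 of 11 alternatives for BCL2 and 5 of 11 for BID, PRMT1-KD1 lay above NC as well.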

How the results depend on the processing

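Of 217 member changes recomputed under the alternatives, 196 moved by less than 1 SD of the spread between the knockdowns, 21 moved more, and 0 that had passed 1.5-fold changed sign. In PRMT1-KD1 the members lower by 1.5-fold numbered 1 as reported, 3 with the percentile over detected probes, 2 with no floor and no filter and 0 with spike-in scaling, and those higher numbered 0 instead of 3 at a fold of 2. The members' median in PRMT1-KD1 was 0.29 with the unscaled matrix and 0.58 with spike-in scaling, and PRMT1 was at -2.87 and -2.64. In PRMT1-KD2 the lower count was 2 with median scaling and 0 at a fold of 2, with the mean over probes, with spike-in scaling and with the GC and brightness trend subtracted, and the higher count was 0 at a fold of 2. Between the knockdowns the lower count was 2 with no floor and 0 at a fold of 2 and with spike-in scaling, and the higher count was 0 at a fold of 2, with quantile normalization, with the percentile over detected probes and with the GC trend subtracted. The cause of these moves was not tested. BMF had a value in 9 of 11 alternatives in PRMT1-KD1 and in 10 of 11 in PRMT1-KD2, and with no floor it was at -1.17 and -0.49. Over the genes well above background on all arrays, the median change was 0.35 and 0.03 with unscaled values and 0.58 and 0.23 with spike-in scaling, against -0.04 and -0.07 in the reported setting. With 1 array per group no replicate could be left out. No paired analysis was possible because each group has 1 array and the labels number no replicates.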
